A study of Mus musculus with 469 samples.

Results

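Gap43, Marcks, Marcksl1 and Basp1 encode 4 proteins of the growth cone, the motile tip of an extending axon. They were taken by name from the 23281 genes of a single-cell RNA table of mouse olfactory epithelium and described in every sorted and injured group. All 4 were present in the table. Marcks was among the most abundant messages in cells sorted as neuronal progenitors, where it was found in all cells but 2. Gap43 was found in 84 of 85 cells of clusters resembling immature neurons and in 13 of 63 of clusters resembling mature ones, while cells with much Omp differed between the sorts in how often they held it. Marcksl1 and Basp1 had lower mean levels per length, and Basp1 was found in fewer than 1 in 2 cells of each group.

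The olfactory epithelium makes sensory neurons throughout life. Globose basal cells divide into immediate neuronal precursors that transiently express the transcription factor Neurog1, and these become immature neurons that send an axon to the olfactory bulb and later switch on Omp, the olfactory marker protein. Removal of the bulb (olfactory bulbectomy) kills the neurons that projected there and sets off a wave of replacement. GAP-43 is the classical protein of the growing axon and a standard marker of immature olfactory neurons. MARCKS, its smaller relative MARCKSL1 (also called MRP) and BASP1 (also called CAP-23) sit with GAP-43 on the inner face of the plasma membrane, where they bind calmodulin and acidic lipids such as PIP2, are phosphorylated by protein kinase C and regulate the actin cortex.

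The 4 proteins are held at the membrane by lipids on their first residues, and the first codons of each gene are shown for that reason. The bases are from the GENCODE vM21 transcripts on build GRCm38 and are printed 5′ to 3′ on the coding strand. Capitals mark the codons of the lipid-bearing residues, which are cysteines at codons 3 and 4 in Gap43 (palmitoylation) and a glycine at codon 2 in the other genes (myristoylation). The segments lie in 1 exon each, at chr16:42340473-42340502 on the minus strand for Gap43, chr10:37138506-37138535 on the minus strand for Marcks, chr4:129513830-129513859 on the plus strand for Marcksl1 and chr15:25364880-25364909 on the minus strand for Basp1.
Gap43: atgctgTGCTGTatgagaagaaccaaacag
Marcks: atgGGTgcccagttctccaagaccgcagcg
Marcksl1: atgGGCagccagagctctaaggctccccgg
Basp1: atgGGAggcaagctgagcaagaagaagaag

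Marcks and Marcksl1 are paralogs, and the stretch in which their coding sequences are most alike is shown because it bears on both function and counting. Among in-frame windows of 75 bases, the best pair shared 55 of 75 bases (73.3%), and capitals mark the shared bases. The window lies at chr10:37136528-37136602 on the minus strand in Marcks and at chr4:129514888-129514962 on the plus strand in Marcksl1.
Marcks: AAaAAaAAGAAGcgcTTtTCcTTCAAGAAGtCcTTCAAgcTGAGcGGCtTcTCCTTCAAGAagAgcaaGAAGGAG
Marcksl1: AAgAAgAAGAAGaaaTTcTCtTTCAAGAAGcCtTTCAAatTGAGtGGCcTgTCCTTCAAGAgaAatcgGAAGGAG
It is the lysine-rich effector region that binds calmodulin and acidic lipids and holds the serines phosphorylated by protein kinase C. The Marcks window has 11 lysine, 5 phenylalanine and 5 serine codons, and the Marcksl1 window has 10, 4 and 3. The longest run of identical bases between the 2 transcripts was 17, and between other pairs of the 4 it was 13 to 15. The sources used here do not state how the authors' counting treated reads that match more than 1 gene.

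The labels gave 6 groups, all from mice 8 weeks old. Cells positive for OMP-eGFP from strain B6 OMP-eGFP were labelled as engrafted after transplantation (29 cells kept of 89 libraries) or as taken 14 days after bulbectomy (42 of 50). Cells positive for Neurog1-eGFP from strain FVB Neurog1-eGFP came from uninjured epithelium (46 of 61) or from 5 days (48 of 51) and 14 days (25 of 26) after bulbectomy. The reference, which the study's design calls unsorted, was uninjured epithelium of F1 wildtype mice, strain B6;129SF1/J (F1), in 2 runs (68 of 96 and 70 of 96 kept). The extraction protocol given for every library, reference included, describes a sort on eGFP, so the labels disagree on whether the reference was sorted. Strain goes with the sort, so the effect of strain cannot be told apart from that of the sort. A fluorescent protein can outlast its promoter's activity, and the OMP-eGFP and Neurog1-eGFP sorts hold cells in which the matching RNA was not found. Why it was not found in those cells was not tested. The labels named no animal and no sex, and the host of the transplant was not described. Each group is therefore 1 sample, no difference below has a replicate check, and no p-value was computed.

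Single cells were captured on the Fluidigm C1 and 1 column per cell was deposited. No 2 columns were identical. Values below are CPM, a gene's share of its cell's total times 1000000, and a gene was called found where it reached 10 CPM. Median recovered depth was 427582 to 1347936 fragments per group or run, lowest in run 1 of the reference and highest in the OMP sort at 14 days. At these median depths 10 CPM is roughly 4.28 to 13.5 fragments. The shallowest kept cell, an engrafted one, had 13369 fragments, and there a single fragment already exceeds 10 CPM. Shares carry exact Clopper-Pearson 95% intervals, which cover the counting of cells only. Omp was under 10 CPM in 7 of 29 engrafted and 1 of 42 OMP cells at 14 days, and Neurog1 was found in 23 of 46, 18 of 48 and 12 of 25 Neurog1-sorted cells of uninjured, 5-day and 14-day epithelium. In the reference, 39 of 68 cells of run 1 and 65 of 70 of run 2 had at least 3 of 10 sustentacular (supporting cell) markers at 50 CPM or more, against 1 to 4 cells in each sort. Separately, 9 libraries of reference run 1 held over 10000 genes each, so reference values are also given without them where they matter.

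**Figure D1:**
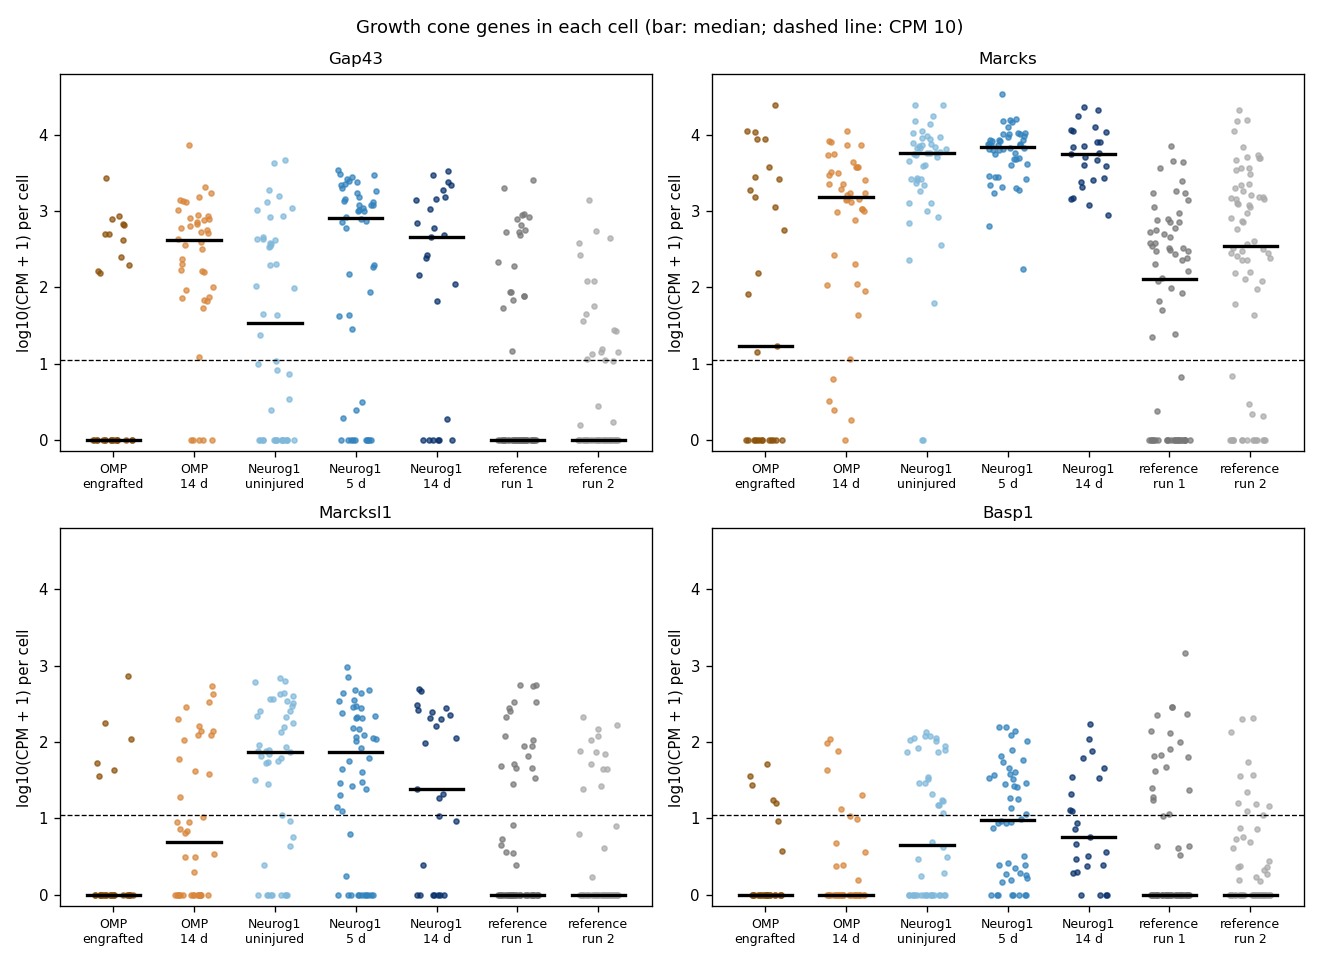
Each point is 1 cell, with log10(CPM + 1) of the named gene on the vertical axis and the sorts and reference runs on the horizontal axis. Black bars are medians and the dashed line is a CPM of 10. Marcks fills the upper part of the 3 Neurog1 sorts, while Gap43 is split into cells at 0 and cells well above the line.

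The protein of Gap43 carries its lipid on cysteines and is bound by calmodulin at low calcium. In engrafted OMP cells Gap43 ranged from 0 to 2720.1 CPM with a median of 0, and in OMP cells at 14 days from 0 to 7379 with a median of 412.5. In Neurog1-sorted cells the lowest value was 0 at each time. Their medians were 32.9, 809 and 448.9 and their highest values 4680.5, 3479.7 and 3327 in uninjured, 5-day and 14-day epithelium. The reference had a median of 0 in both runs and highest values of 2535 in run 1 and 1379 in run 2. The groups overlapped over nearly their whole ranges, and what set them apart was the number of cells well above 0. Gap43 exceeded 1000 CPM in 1 of 29 engrafted cells, 8 of 42 OMP cells at 14 days and 3 reference cells. Among Neurog1-sorted cells it did so in 7 of 46 cells without injury, 22 of 48 of day 5 and 9 of 25 of day 14. The share of cells with Gap43 was highest in the OMP sort at 14 days, at 88.1% (74.4 to 96%), against 72% (50.6 to 87.9%) in the Neurog1 sort of the same day.

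Marcks, the larger of the 2 MARCKS genes, was found in every Neurog1-sorted cell after injury. In uninjured, 5-day and 14-day Neurog1 cells the lowest values were 0, 171.5 and 898 CPM, the medians 5679, 6928 and 5506, and the highest 24781, 34290.1 and 23082. Engrafted OMP cells ranged from 0 to 24349 with a median of 15.8, and OMP cells at 14 days from 0 to 11235 with a median of 1532. The reference ranged from 0 to 20874 with a median of 263.98. Marcks was therefore spread over the full range in engrafted cells, with 13 of 29 at 0 and 11 of 29 above 1000. By mean CPM, which is not adjusted for length, Marcks ranked 5 of 23281 genes in all 3 Neurog1 sorts. It ranked 26 in OMP cells at 14 days, 24 in engrafted cells and 74 in the reference. Per length, by mean FPKM, its rank was lower in every group, the reference included. It was 13, 11 and 10 in uninjured, 5-day and 14-day Neurog1 cells, 65 in OMP cells at 14 days and 55 in engrafted cells.

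Marcksl1, the MARCKS-like paralog, had medians of 74.1, 72.2 and 23.5 CPM and highest values of 687, 954 and 489 in Neurog1 cells from uninjured, 5-day and 14-day epithelium. Its median was 0 in engrafted cells, 3.94 in OMP cells at 14 days and 0 in the reference, with highest values of 734, 542 and 565. It was found in 69.6%, 72.9% and 60% of Neurog1-sorted cells at the 3 times. The shares were lower in OMP cells, at 20.7% (7.99 to 39.7%) of engrafted cells and 35.7% (21.6 to 52%) at 14 days, and in the reference, at 23.2% (16.4 to 31.1%). Without the 9 libraries of over 10000 genes the reference share was 17.8% (11.7 to 25.5%).

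Basp1, which shares the glycine-linked lipid with the MARCKS genes but not their effector region, had the lowest mean FPKM of the 4 in every group. In the reference without the 9 libraries of over 10000 genes that order turned, with means of 13.5 FPKM for Basp1 and 12.9 for Marcksl1. The medians of Basp1 were 3.52, 8.60 and 4.65 CPM and its highest values 133.3, 157.3 and 170.4 in uninjured, 5-day and 14-day Neurog1 cells. In engrafted OMP cells, OMP cells at 14 days and the reference the median was 0, and the highest values were 51.1, 107.5 and 1448. It was found in 47.8%, 47.9% and 40% of Neurog1 cells at the 3 times, 17.2% of engrafted cells, 14.3% of OMP cells at 14 days and 22.5% of the reference. The reference value of 1448 CPM belonged to 1 cell of run 1 that also had 6 sustentacular markers. In a coarser clustering this cell fell in the cluster resembling immediate neuronal precursors. The next highest reference value was 289.2, in a library of over 10000 genes. At these depths a Basp1 level of a few CPM is a few fragments, so a cell without it may lie below detection.

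**Figure D2:**
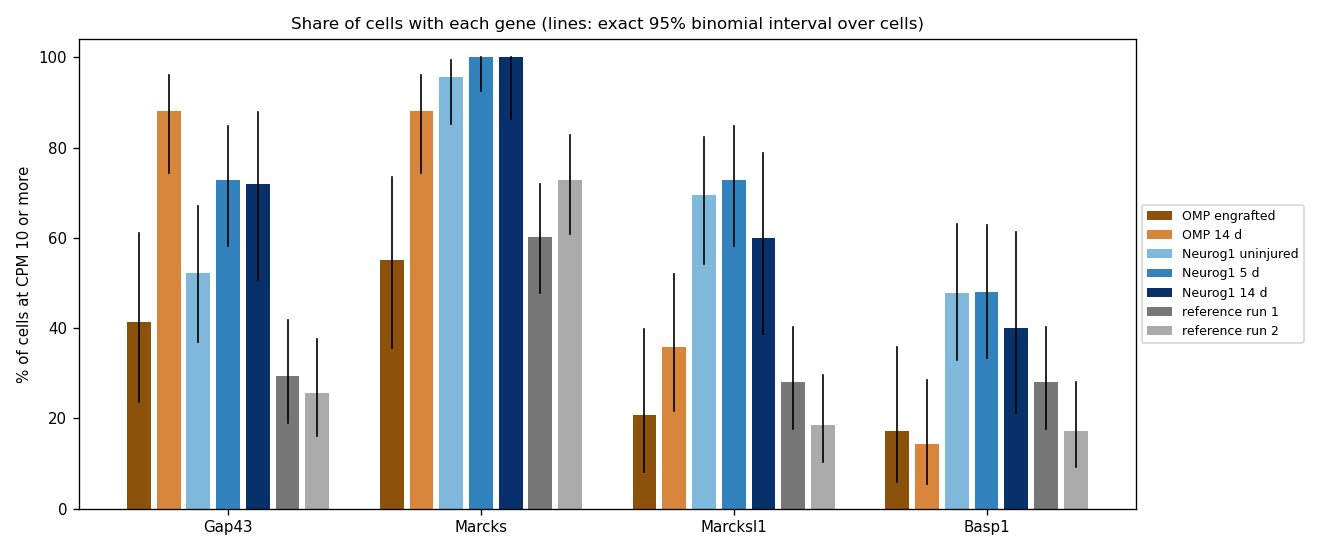
Bars show the percent of cells that reached 10 CPM for each gene, from 0 to 100, by sort and reference run, and lines are exact 95% binomial intervals over cells. Marcks stood at 95.7 to 100% in the Neurog1 sorts and Basp1 under 50% everywhere.

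Levels can be compared between genes only per length, for which the authors' FPKM table was used. Mean FPKM in Neurog1 cells from uninjured, 5-day and 14-day epithelium was 1477, 1800 and 1737 for Marcks and 405.4, 860.2 and 764 for Gap43. For Marcksl1 it was 106.2, 106.6 and 86.6, and for Basp1 17.8, 16.5 and 14.4. The order Marcks, Gap43, Marcksl1, Basp1 was the same at each time. In OMP cells at 14 days Gap43 and Marcks were close, with means of 606 and 595 FPKM and medians of 362.2 and 369.6. Cell by cell, Marcks was the highest of the 4 by FPKM in 35 of 46, 35 of 48 and 18 of 25 Neurog1-sorted cells of uninjured, 5-day and 14-day epithelium. In OMP cells at 14 days Marcks led in 20 and Gap43 in 19 of 42.

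The 4 genes were found together in a minority of cells. This number cannot exceed that of cells with Basp1, which was found in 14.3 to 47.9% of each group. All 4 reached 10 CPM in 1 of 29 engrafted cells, 4 of 42 OMP cells at 14 days, and 9 of 46, 14 of 48 and 5 of 25 Neurog1-sorted cells of uninjured, 5-day and 14-day epithelium. In the reference it was 11 cells, of which 9 were the libraries of over 10000 genes. None of the 4 was found in 11 of 29 engrafted cells, 1 of 42 OMP cells at 14 days, 1 Neurog1-sorted cell and 39 reference cells. In the Neurog1 sorts every cell with Marcksl1 or Basp1 (82 and 55 cells) also had Marcks, a gene found in all but 2 of them. Across engrafted cells Gap43 and Marcks went together, with a Pearson correlation of log2(CPM + 1) of 0.78 over 29 cells. The 12 engrafted cells with Gap43 all had Marcks. In OMP cells at 14 days the same correlation was 0.23 over 42 cells, and over the Neurog1-sorted cells together it was 0.14. Gap43 and Marcksl1 ran weakly in opposite directions at 5 days (−0.31, 48 cells) and 14 days (−0.36, 25 cells) but not in uninjured cells (0.15, 46 cells). Cells of a group differ in depth and may share a capture, which was not checked, and these correlations are descriptions.

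The Neurog1 sorts could be divided by whether Neurog1 RNA itself was still found. Gap43 was low where it was found and high where it was not, with medians of 7.13 CPM in 53 cells with Neurog1 and 700.5 in 66 cells without it, and it was found in 45.3% and 80.3% of them. The other genes ran the other way. Marcks had medians of 6864 with Neurog1 and 4762 without it, Marcksl1 135.6 and 28.4, and Basp1 10.6 and 3.24. Gap43 kept this order of medians at each time, at 6.21 with Neurog1 against 337.9 without it in uninjured cells, 116.5 against 1189 at 5 days and 32.6 against 685 at 14 days. Marcks had 7200.0 against 2522 CPM in uninjured cells, 6909 against 6953 at 5 days and 6017 against 5506 at 14 days, so its difference was mostly that of uninjured epithelium. Marcksl1 was higher with Neurog1 at each time, with medians of 89.5 against 27.3, 150.6 against 34.1 and 85.4 against 23.5. Median Neurog1 was 9.86, 0 and 5.99 CPM in uninjured, 5-day and 14-day cells, so a cell without it may lie below detection. In uninjured cells log2 depth correlated with Marcks at 0.48, Marcksl1 at 0.47, Gap43 at 0.28 and Basp1 at 0.08. The part of depth in this division was not tested.

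Omp, the marker of mature neurons, gave a second axis. In Neurog1-sorted cells with Omp under 10 CPM (67 cells), at 10 to under 1000 (37 cells) and at 1000 or more (15 cells), median Gap43 was 64.3, 605 and 337.9 CPM. Median Marcks was 7058, 5743 and 2187 in the same order, and Marcksl1 was 74.7, 89.5 and 13.2. These medians pool the 3 times. Within uninjured cells median Gap43 was 0, 198.7 and 337.9 in the 3 classes, at 5 days 838, 781 and 597, and at 14 days 110.6 and 1665 in the first and second. The order of Gap43 by Omp therefore differed between the times. Median Marcks in uninjured cells was 7314, 4961 and 1289. Of the 15 cells with the most Omp, 13 were from uninjured epithelium and 2 from 5 days, so that class has no cell from 14 days. In OMP cells at 14 days, median Gap43 was 773 CPM at intermediate Omp (24 cells) and 74.7 at 1000 or more (17 cells), and median Marcks was 2152 and 979. Basp1 was found in 5 of these 24 and in 0 of these 17 cells, which allows a share of up to 17.6% by 3 counts of the total and 19.5% by the exact interval. The 2 highest of these 17 cells, at 9.65 and 8.96 CPM, lay just under the threshold. With Omp at 1000 or more, Gap43 was found in 3 of 16 engrafted cells, 13 of 17 OMP cells at 14 days and 8 of 13 uninjured Neurog1-sorted cells. Marcks was found in 7 of the 16 engrafted cells. Reference cells with as much Omp had Gap43 in 28 of 82 and Marcks in 56 of 82, but sustentacular markers were frequent there, and their part in these shares was not tested. These counts also include libraries of over 10000 genes. The 9 such libraries had a median Omp of 5105 CPM, and all 9 had Gap43 and Marcks. The part of these libraries in the 2 shares was not tested either.

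**Figure D3:**
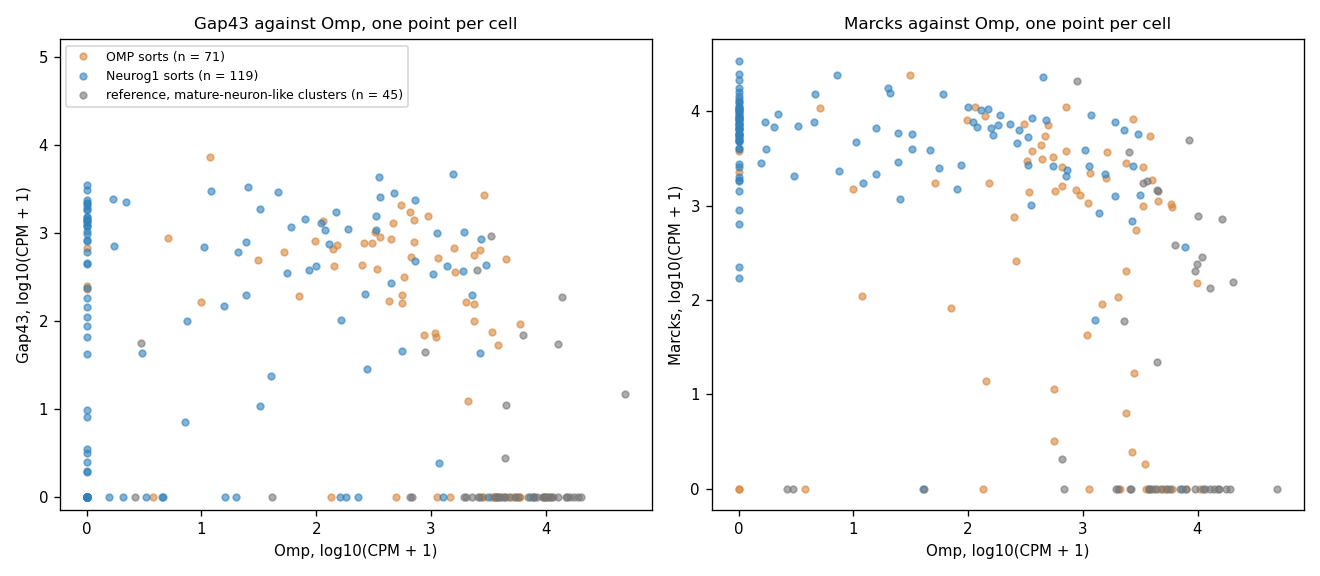
Each point is 1 cell, with Omp on the horizontal axis and Gap43 (left) or Marcks (right) on the vertical axis, both as log10(CPM + 1). Orange marks OMP sorts, blue Neurog1 sorts and grey the 45 reference cells of mature-neuron-like clusters. Cells at intermediate Omp mostly carry both genes, while most of the grey cells lie at 0.

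Clusters were made from 2000 variable genes without the 4. Of 12 clusters, 2 were immature-neuron-like by markers (numbers 11 and 12, 85 cells), 2 mature-neuron-like (4 and 5, 63 cells) and 2 sustentacular-like (1 and 2, 30 cells). The remaining 6 (150 cells) stayed unnamed. Among these, clusters 3 (26 cells) and 10 (17 cells) were led by sustentacular markers, 10 and 9 of them. The sustentacular-like class therefore leaves out cells rich in these markers. Cluster 11, mostly OMP cells at 14 days (25 of 45), also held mature markers, with Omp found in 91.1% of its cells, while cluster 12, mostly 5-day Neurog1 cells (21 of 40), had Omp in 47.5%. Gap43 was found in 98.8% (93.6 to 100%) of the immature-neuron-like cells, 20.6% (11.5 to 32.7%) of the mature-neuron-like and 10.0% (2.11 to 26.5%) of the sustentacular-like cells. Marcks was found in 97.6%, 42.9% (30.5 to 55.9%) and 83.3% (65.3 to 94.4%) of the same classes, so it was not confined to the neuron-like clusters. Omp was found in 81.25% of cells of cluster 1 and 100% of cluster 2. The part of neuronal RNA in the Marcks of these sustentacular-like cells was not tested. In the same order of classes Marcksl1 was found in 60%, 4.76% and 23.3%, and Basp1 in 41.2%, 11.1% and 10.0%. The classes differed in depth, with medians of 1307313 and 1181834 fragments in clusters 11 and 12 and 588144 and 224719 in clusters 4 and 5. Clusters 1 and 2 had medians of 615870 and 676924. The part of depth in these shares was not tested. No test was made, because a cell's cluster rests on the same cell's other genes.

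Among the clusters with few mature markers, Gap43 and Marcks parted. Cluster 7 (9 cells) was led by genes of dividing cells such as Kif11 and Ccnb1 and had as many precursor as globose basal cell markers. There Gap43 was found in 1 of 9 cells, while the medians of Marcks, Marcksl1 and Basp1 were 7568, 117.7 and 33.5 CPM. Cluster 8 (50 cells, 47 of them Neurog1-sorted) had precursor and immature markers in equal number, with median Gap43 at 8.46 and Marcks at 6696. In cluster 12 both were high, at 1526 for Gap43 and 7631 for Marcks. In cluster 11 Gap43 was at 639 and Marcks at 2187, and in cluster 4, a mature-neuron-like cluster, at 0 and 18.5. Cluster 9 consisted of the 9 libraries of over 10000 genes, and each of them had all 4 genes, with markers of many cell types, so their composition is uncertain.

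**Figure D4:**
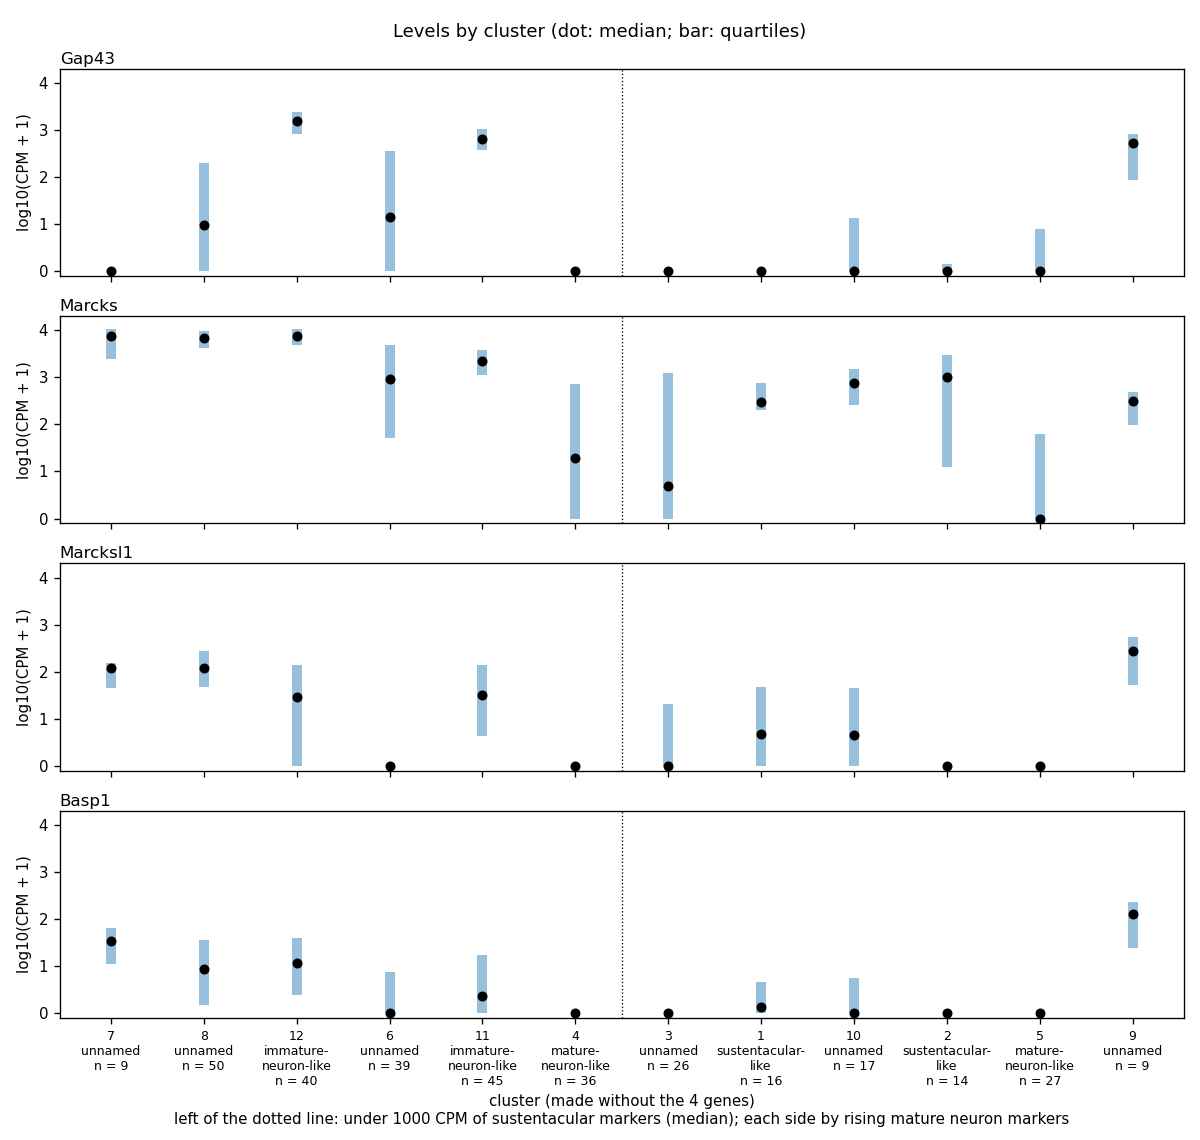
Dots are medians and bars quartiles of log10(CPM + 1) for each gene in the 12 clusters. Left of the dotted line are clusters with a median under 1000 CPM of summed sustentacular markers, and clusters on each side are ordered by rising mature neuron markers. Marcks medians are 7568, 6696 and 7631 CPM in clusters 7, 8 and 12, Gap43 is at 1526 CPM in cluster 12 and 639 in cluster 11, and their medians are 0 and 18.5 CPM in cluster 4.

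Within the immature-neuron-like class the groups could be set side by side. Median Gap43 was 683 CPM in 7 engrafted cells and 557 in 25 OMP cells at 14 days. In Neurog1-sorted cells it was 838 in 14 uninjured cells, 1514 in 23 cells at 5 days and 1539 in 11 cells at 14 days. Median Marcks was 3793, 1723, 4504, 8394 and 3963 in the same groups. Different clusters hold the class in different groups, with 25 of 25 OMP cells at 14 days and 10 of 14 uninjured cells in cluster 11, and 21 of 23 cells at 5 days in cluster 12. Cluster and group cannot be told apart in these values. In mature-neuron-like cells Gap43 was found in 3 of 14 engrafted and 9 of 45 reference cells, and Marcks in 7 of 14 and 17 of 45.

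Group means were then compared as log2 ratios of mean CPM + 1, and a ratio of 2-fold or more either way was called. With cells this variable many genes pass that line, so each comparison is given with the percent of all tested genes (at least 5 CPM on average on one side) that do.

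The first question was the response to bulbectomy within the Neurog1 sort. At 5 days against uninjured, 1 of the 4 genes was past 2-fold and higher, as were 20.9% of 10054 genes, and none was past 2-fold and lower, as were 26.3%. Gap43 had a mean of 988 CPM at 5 days and 466.5 in uninjured cells (log2 ratio 1.08, median of all genes −0.13). Leaving out single cells moved the ratio between 1.00 and 1.40. The call was lost with libraries of 2000 genes or more (0.96), with pooled fragments (0.83) and without the library filter (0.59). The ranges of the cells overlapped, and the intervals of the shares overlapped in part, 72.9% (58.2 to 84.7%) at 5 days and 52.2% (36.9 to 67.1%) uninjured. Marcks was at 7508 and 6186 (0.28), Marcksl1 at 155.1 and 157.2 (−0.02) and Basp1 at 28.6 and 31.1 (−0.12). Sustentacular markers were higher at 5 days (8 of 8 measured past 2-fold), and 2 of the 48 cells held 94.4% of their summed level. Without cells of at least 3 such markers the ratio of Gap43 was 1.14. Mature neuron markers were lower at 5 days, with 9 of 11 past 2-fold and a median log2 ratio of −2.50, while 0 of 9 immature neuron markers were past 2-fold either way.

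At 14 days against uninjured none of the 4 was past 2-fold, while 22% of 9992 genes were higher and 29.9% lower by that much. Gap43 had a mean of 849.6 CPM at 14 days and 466.5 in uninjured cells (0.86, and up to 1.19 without single cells), and Marcks 7253 and 6186 (0.23). Marcksl1 was at 125.7 and 157.2 (−0.32) and Basp1 at 24.3 and 31.1 (−0.34). Basp1 was at −2.54 without the library filter, and ratios of medians over cells were 3.73 for Gap43 and −1.62 for Marcksl1. Of 11 mature neuron markers 8 were past 2-fold and lower at 14 days. At 14 days against 5 days the log2 ratios of the 4 lay between −0.30 and −0.05, against 23.8% of 9844 genes higher and 27.1% lower by 2-fold. These 3 comparisons share samples and are not independent of each other.

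The Neurog1 sort was next set against the unsorted reference, both uninjured. Gap43, Marcks and Marcksl1 were past 2-fold and higher in the sort, as were 22.4% of 11061 genes, and 32.6% were lower. Gap43 averaged 466.5 CPM in the sort and 109.4 in the reference (2.08). Marcks averaged 6186 in the sort and 1298 in the reference (2.25), and Marcksl1 157.2 and 36.2 (2.09). With the reference runs pooled, the share intervals did not overlap for any of the 4 genes, at 52.2% in the sort and 27.5% in the reference for Gap43, 95.7% and 66.7% for Marcks, 69.6% and 23.2% for Marcksl1 and 47.8% and 22.5% for Basp1. Against run 1 alone they did overlap for Gap43 (29.4%, upper bound 41.7%) and Basp1 (27.9%, upper bound 40.1%), and against run 2 alone for Gap43 (25.7%, upper bound 37.6%). How many of all genes had intervals apart in this comparison was not counted, so the separation cannot be called particular to the 4. Basp1 averaged 31.1 CPM in the sort and 29.8 in the reference (0.06), and this mean ratio depended on the reference run and on 1 cell. It was −0.64 against run 1, 1.40 against run 2 and 0.65 without the reference cell at 1448 CPM. The other ratios held their direction against either run, at 1.45 and 3.19 for Gap43, 3.37 and 1.65 for Marcks, and 1.47 and 3.15 for Marcksl1 against runs 1 and 2. Sustentacular markers were frequent in the reference, and without all cells holding at least 3 of them the ratios were 1.25 for Gap43, 2.39 for Marcks, 2.86 for Marcksl1 and 1.09 for Basp1.

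The OMP and Neurog1 sorts of 14 days set cells marked by a gene of mature neurons against cells marked by a gene of precursors, in different strains. Marcks averaged 2466 CPM in OMP cells and 7253 in Neurog1 cells (−1.56), and Basp1 9.02 and 24.3 (−1.34). Both were past 2-fold and lower, as were 28.6% of 10022 genes, and 32.4% were higher. Marcksl1 averaged 66.3 in OMP cells and 125.7 in Neurog1 cells (−0.91). Gap43 averaged 695 in OMP cells and 849.6 in Neurog1 cells (−0.29), with overlapping intervals of its shares. All 9 measured sustentacular markers were past 2-fold and higher in OMP cells, and without the cells holding at least 3 of them the ratio of Marcks was −1.62 and that of Basp1 −1.44. The call of Basp1 was lost with pooled fragments (−0.69) and without single cells (up to −0.94).

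Engrafted OMP cells were then compared with OMP cells at 14 days. Gap43 averaged 272.1 CPM in engrafted cells and 695 at 14 days (−1.35), and was past 2-fold and lower, as were 35% of 9623 genes, with 21.7% higher. It was found in 41.4% (23.5 to 61.1%) of engrafted cells and 88.1% (74.4 to 96%) at 14 days, and these intervals did not overlap. The number of all genes with intervals apart was not counted in this comparison. With libraries of 2000 genes or more the log2 ratio was −0.61, and it was −0.61 again without the library filter. Leaving out single cells moved it between −1.91 and −0.97. Marcks was found in 55.2% (35.7 to 73.6%) of engrafted cells and 88.1% (74.4 to 96%) at 14 days, yet its means were close, at 2705 and 2466 CPM (0.13). The 2 highest engrafted cells held 45.2% of the summed Marcks of their group. Marcksl1 averaged 39.7 in engrafted cells and 66.3 at 14 days (−0.73), but 1 engrafted cell at 734 CPM, which had 7 sustentacular markers and none of the other 3 genes, carried most of it, and without it the ratio was −2.08. Engrafted libraries were shallower, with a median of 501827 fragments against 1347936, and 60 of 89 had been removed as too thin. Markers moved too. Of 9 immature neuron markers 5 were past 2-fold and lower in engrafted cells (median −1.38). All 3 measured Bowman gland and 3 of 4 microvillar markers were higher. Rgs5, the only measured gene of the 4 in the endothelial and pericyte list, averaged 20856 CPM in engrafted cells and 0.066 at 14 days. Each of these higher markers was found in only 3.45 to 13.8% of engrafted cells, and Rgs5 also in 69.6% of reference cells. The part of depth and of the cells with these markers in the differences was not tested.

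Against the unsorted reference, OMP cells at 14 days had more Gap43, at a mean of 695 CPM against 109.4 (2.66), and less Basp1, at 9.02 against 29.8 (−1.62). Among all 10818 genes 18.8% were higher and 33.9% lower by 2-fold. The Gap43 shares of 88.1% in OMP cells and 27.5% in the reference did not overlap in their intervals. How many of all genes had intervals apart was not counted here either, so this separation cannot be called particular to Gap43. Marcks averaged 2466 in OMP cells and 1298 in the reference (0.93), and Marcksl1 66.3 and 36.2 (0.85). The Basp1 ratio was −0.28 against run 2 alone and −1.03 without the reference cell at 1448 CPM, and that call was also lost with pooled fragments (−0.61). The Marcks ratio was 2.04 against run 1 and 0.32 against run 2, and that of Marcksl1 0.23 and 1.92. All 10 sustentacular markers were past 2-fold and lower in OMP cells. Without cells holding at least 3 of them the ratio was 1.83 for Gap43 and −0.80 for Basp1.

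**Figure D5:**
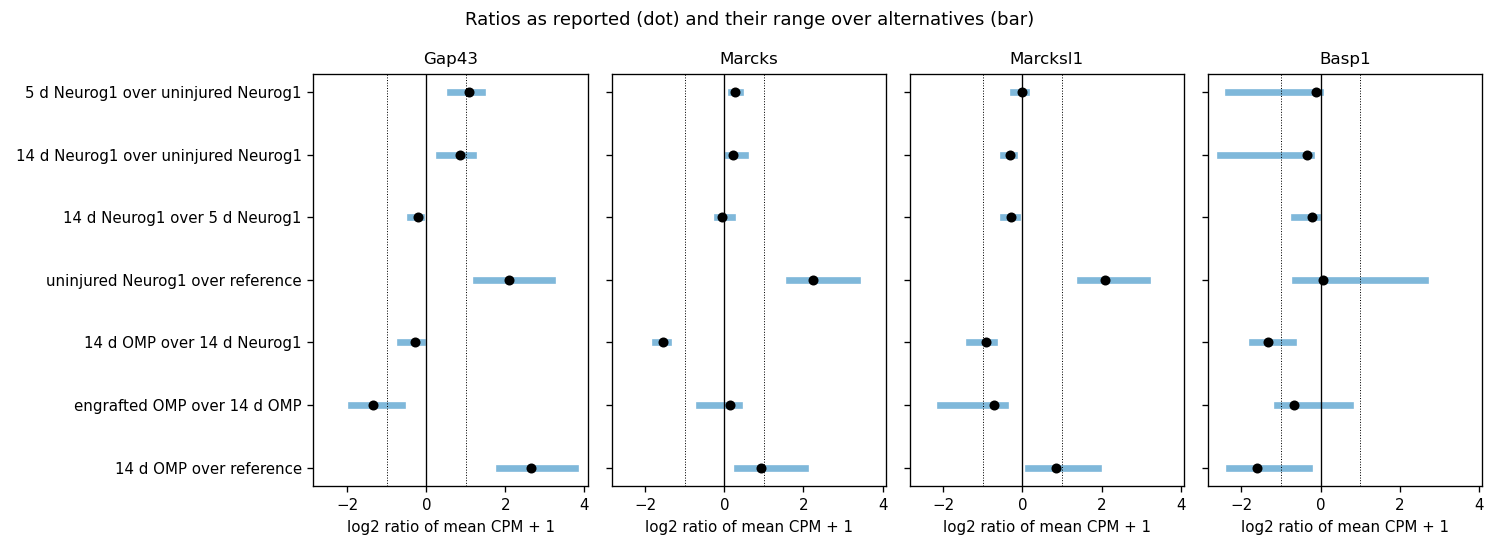
Dots show the log2 ratio of mean CPM + 1 for each gene in the 7 comparisons, and bars the range over the alternatives other than the median over cells. Dotted lines mark 2-fold. Gap43, Marcks and Marcksl1 stay above 0 in uninjured Neurog1 cells against the reference, while Basp1 spans 0.

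Other growth cone genes were given by 3 lists, of which 8 genes are also markers of immature neurons. Of the microtubule list, which holds stathmins, tubulins, collapsin response mediators and microtubule-binding proteins, 10 of 15 measured genes were past 2-fold and higher in uninjured Neurog1 cells against the reference and 0 lower (median log2 ratio 1.17, all genes −0.16). Dpysl2, a collapsin response mediator, averaged 9023 CPM in the sort and 2384 in the reference, and Stmn2, a stathmin of growing axons, 1711 and 375.2. Over all genes 22.4% were higher and 32.6% lower by that much. Of the actin list 5 of 13 were higher and 2 lower. Tmsb10, an actin-monomer-binding thymosin, averaged 75.1 in the sort and 16.6 in the reference, and Actg1, a cytoplasmic actin, 286.3 and 686. Of the partners of the 4 proteins (among them protein kinase C, calcineurin, PIP5 kinases and the myristoyl transferases Nmt1 and Nmt2) 5 of 14 were higher and 3 lower.

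After bulbectomy 0 of 15 microtubule genes were past 2-fold either way at 5 days against uninjured (median 0.26, all genes −0.13). Over all genes 20.9% were higher and 26.3% lower by that much. Dcx, a microtubule-binding protein of migrating and immature neurons, was at 1686 CPM at 5 days and 954 uninjured (0.82). In OMP cells at 14 days against Neurog1 cells of that day, 6 of 15 microtubule genes were lower and 2 higher (median −0.74, all genes 0.04), and 6 of 12 actin genes were lower and 1 higher (median −0.99), against 28.6% of all genes lower and 32.4% higher. Tubb3, a neuronal tubulin, averaged 630.1 in OMP cells and 1889.8 in Neurog1 cells, and Actb, the main cytoplasmic actin, 1644 and 3678. Stmn1 went the other way, at 1641 in OMP cells and 278.5 in Neurog1 cells (2.55), as did Pfn2, a profilin, at 1363 and 382.4 (1.83). In engrafted against 14-day OMP cells 8 of 15 microtubule genes were lower and 1 higher (median −1.02, all genes −0.34), against 35% of all genes lower and 21.7% higher. Dcx averaged 699.9 in engrafted cells and 1829 at 14 days, and Stmn1 294.4 and 1641.

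Genes with the most similar pattern across the Neurog1-sorted cells of all 3 times were taken from 2120 candidates by Pearson correlation of log2(CPM + 1). For Gap43 they were Calb2, which encodes the calcium-binding protein calretinin (0.64), Cntn4, a cell adhesion molecule of axons (0.61), Snap25, a synaptic vesicle fusion protein (0.58) and Homer2, a scaffold protein (0.55), followed by Ppfia2, Rab6b, Pfn2 and Osbpl8 (0.50 to 0.51). The median over all candidates was 0.11. With Calb2 the correlation was 0.66 in 71 OMP-sorted cells and 0.40 in the reference cells, while with Snap25 it was 0.20 and 0.15. For Marcks the 4 highest were Hn1 (0.57), the tubulin gene Tubb5 (0.53), the collapsin response mediator Dpysl3 (0.51) and the actin-binding Twf1 (0.50). Tubb5 and Dpysl3 were at 0.66 and 0.65 in uninjured cells but at −0.06 in the 25 cells of 14 days. The highest for Marcksl1 was Ppib (0.41) and for Basp1 Atp8b4 (0.39), both weak. Depth is shared by all genes of a cell, and log2 depth itself correlated with Marcks at 0.43 and with Gap43 at 0.22 over these cells.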

How the data were processed

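The data are 469 single-cell libraries prepared with the Fluidigm C1 and Nextera XT, per the labels' protocols. Both deposited tables have a column for each cell. In the first the values are a signal, estimated fragments per gene that the authors scaled to nearly equal column sums (99.4% of nonzero values are not whole). The second holds FPKM values deposited by the authors. FastQC, STAR 2.5.2a, Cufflinks 2.2.1, Cuffnorm and build mm9 are named, with no roles, per the submitters' processing notes. The annotation is not given in the sources used here.

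After removing 27 gene names altered into dates (0.422% of the signal), each value was divided by its column sum to give CPM over 23281 genes. Whole multiples of the smallest step in a column (tolerance 0.02, low values, median 94.8% whole) gave the recovered fragments. Libraries were kept if at least 1000 genes reached a value of 1 and the column summed to at least 50000, 328 in all, with 13369 to 2186038 fragments. The analysis plan left the test out because each group is 1 sample. No doublet caller was run. Log2 ratios used mean CPM + 1 over 7 comparisons. Clustering used 2000 variable genes without the 4 described, 20 principal components and Ward linkage into 12 clusters. They were named only where 1 type led with 3 or more markers. Not every such cluster was named, since clusters 3 and 10, led by sustentacular markers, stayed unnamed. Genes named were the 4, list genes past 2-fold or given as examples, and the 8 most correlated with each of the 4 in Neurog1 sorts (mean CPM of 50 or more, found in 30% of cells or more). Dcx at 5 days was named after its values were seen. The members and lists were chosen with earlier results of these data known. Ratios and steps were checked on simulated data. Alternatives were other filters, thresholds, pseudocounts, tables, runs and clusterings. Software was Python 3.11.15, numpy 2.4.6, pandas 2.3.3, scipy 1.17.1 and matplotlib 3.10.9. Sequences are from GENCODE vM21 on GRCm38, and no coordinate was converted from mm9.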

Additional observations from a re-analysis of the deposited data

How the results depend on the processing

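The 28 log2 ratios (4 genes in 7 comparisons) moved by less than 1.5-fold with the FPKM table and with pseudocounts of 0.1 and 10, and no 2-fold call changed sign under any alternative. The cause of the movements below was not tested. With 2000 genes or more, engrafted against 14-day OMP cells gave −0.61 for Gap43 and −1.41 for Marcksl1, and OMP cells at 14 days against the reference gave 1.998 and 0.15. Without a library filter, Basp1 gave −2.34 at 5 days and −2.54 at 14 days against uninjured and 2.64 for uninjured Neurog1 cells against the reference. Engrafted against 14-day OMP cells then gave −0.61 for Gap43, −0.64 for Marcks, −2.02 for Marcksl1 and 0.74 for Basp1. With pooled fragments Basp1 gave 0.80 (uninjured Neurog1 against reference), −0.69 (OMP against Neurog1 at 14 days) and −0.61 (OMP at 14 days against reference). Against reference run 1 alone, Gap43, Marcks, Marcksl1 and Basp1 gave 1.45, 3.37, 1.47 and −0.64 in uninjured Neurog1 cells and 2.02, 2.04, 0.23 and −2.32 in OMP cells at 14 days. Against run 2 alone they gave 3.19, 1.65, 3.15 and 1.40, and 3.77, 0.32, 1.92 and −0.28. Without cells of at least 3 sustentacular markers, uninjured Neurog1 cells against the reference gave 1.25 for Gap43, 2.86 for Marcksl1 and 1.09 for Basp1. OMP cells at 14 days against the reference gave 1.83 for Gap43 and −0.80 for Basp1, and engrafted against 14-day OMP cells −1.65 for Marcksl1. Without the libraries of over 10000 genes, Marcksl1 against the reference gave 3.06 in uninjured Neurog1 and 1.83 in OMP cells. Medians over cells gave 18 ratios, since the others had a median of 0. At 5 days against uninjured they were 4.58 for Gap43 and 1.09 for Basp1, at 14 days against uninjured 3.73 for Gap43, −1.62 for Marcksl1 and 0.32 for Basp1, and at 14 against 5 days −0.85 for Gap43 and −1.58 for Marcksl1. Marcks gave 4.42 (uninjured Neurog1 against reference), −6.51 (engrafted against 14-day OMP) and 2.53 (OMP at 14 days against reference), and Marcksl1 −2.31 (OMP against Neurog1 at 14 days). Leaving out each cell in turn, an alternative chosen after seeing the data, gave −0.045 to 0.65 for Basp1 in uninjured Neurog1 cells against the reference, −2.01 to −1.03 for Basp1 in OMP cells at 14 days against the reference and −2.08 to −0.45 for Marcksl1 in engrafted against 14-day OMP cells. Of 24 shares of cells, 4 moved with 2000 genes or more, 5 at a threshold of CPM 1, 7 at CPM 50, 5 without a filter, and 0 at CPM 5 or after thinning to 50000 fragments. No paired analysis was possible because each group is 1 sample and cell numbers pair nothing. Depth limits low levels such as those of Basp1, since 10 CPM is roughly 4.28 to 13.5 fragments at median depths and fewer in shallower cells.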
